A study of Mus musculus with 4 samples.

Results

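Bone morphogenetic protein (BMP) signalling and its Id target genes were followed in the left ventricle of wild-type mice and of mice labelled STIM1 KO, after a sham operation or after pressure overload. The set was 10 listed genes, and its members were all probes paired with those symbols in the annotation of the array. Of the 10 genes, 9 were paired with a probe, 1 each, among 23473 probes and 16390 named genes in all. No probe was paired with Bmpr2, the type II BMP receptor, so that gene is not described. Of the 9 measured genes, 6 (Id1, Id2, Id3, Bmp4, Bmpr1a and Smad6) passed a filter on dim signals, and 3 (Id4, Smad1 and Smad5) did not.

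BMP ligands such as BMP4 bind paired type I and type II receptors on the cell surface, and the type I receptor then phosphorylates SMAD1 and SMAD5, which enter the nucleus with SMAD4. The Id genes are classical early targets of this signal. Their proteins hold a helix-loop-helix but no DNA-binding region, so they pair with E proteins and other basic helix-loop-helix factors and keep them off DNA. SMAD6 is an inhibitory SMAD that is itself induced by BMP and dampens the pathway. In the heart, BMP signalling and Id genes are known for roles in development, in the endothelium and endocardium, and in remodelling.

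The samples were 4 single-colour arrays of total RNA from left ventricles of male C57BL/6 mice aged 14 weeks. Wild-type (WT) and STIM1KO mice each gave 1 array after the sham operation and 1 after TAC, so there were 4 groups of 1 array. TAC is transverse aortic constriction, in which a ligature tied over a wire of 0.3 mm narrows the aortic arch; it was done at 10 weeks of age, and hearts were taken 4 weeks later. STIM1 senses calcium in the endoplasmic reticulum and opens store-operated channels in the plasma membrane. The labels call the genotype STIM1 KO and do not say how the deficiency was made, whether it reaches every cell type, or whether an array holds RNA of 1 mouse or of several. The average heart weight to body weight values in the labels, given without a unit, were 4.1 for sham and 6.7 for TAC in WT, and 4.5 and 4.9 in STIM1KO.

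With 1 array per group there are no replicates, and no test, standard deviation or p-value could be computed. Every difference below compares 2 arrays, on the log2 scale, after quantile normalization of the intensities. Measures of size stand in for an error. One is the share of all 7020 genes passing the filter that differed by 2-fold or more in the same comparison. Another is the 5th to 95th percentile of the differences over those genes. The last is an error SD for 1 probe, taken from 50 genes with exactly 2 probes at or above the filter level. It was 0.27 for the response to TAC in WT, 0.42 in STIM1KO, 0.28 between the sham arrays and 0.38 between the TAC arrays. It measures how far 2 probes of a gene disagree on the same arrays. Variation between mice, operations or RNA samples that both probes share is left out of it. The SD over all genes passing the filter was of similar size, at 0.25, 0.42, 0.29 and 0.42 in the same order.

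The Stim1 probe, whose mean lay below the filter, had normalized intensities of 41.6 after sham and 33.9 after TAC in WT, and of 20.7 and 13.8 in STIM1KO. It was lower on both STIM1KO arrays than on either WT array, which goes with the labels but does not show a complete loss. Of the hypertrophy markers, Nppb, which encodes B-type natriuretic peptide, differed by 0.58 between the WT arrays and by -0.06 between the STIM1KO arrays. Myh7, the fetal myosin heavy chain, differed by 0.59 and -0.59, and Nppa, atrial natriuretic peptide, by 0.24 and -0.14. Of 11 listed cardiomyocyte markers, the 9 passing the filter were bright on all 4 arrays, while Ryr2 was dim and Actc1 had no probe. None of 10 listed T cell, B cell and mast cell markers passed the filter.

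Promoter windows are printed for the 4 members passing the filter whose lowest or highest value of the 4 arrays was on STIM1KO TAC, because this array sets the main contrasts below. Id2, Id3 and Smad6 were lowest there and Bmpr1a was highest. Each window runs from 250 bases before to 50 bases after the RefSeq transcription start in GRCm38.p6, written 5′ to 3′ on the strand of the gene. Capitals mark GGCGCC, the GC-rich element bound by BMP-activated SMADs, and CAGAC, a SMAD box, which reads GTCTG when it lies on the opposite strand. Both strands were searched, and the capitals of these motifs do not overlap here. The windows are chr12:25096043-25096342 on the minus strand for Id2, chr4:136143572-136143871 on the plus strand for Id3, chr14:34502497-34502796 on the minus strand for Bmpr1a and chr9:64022010-64022309 on the minus strand for Smad6.
Id2: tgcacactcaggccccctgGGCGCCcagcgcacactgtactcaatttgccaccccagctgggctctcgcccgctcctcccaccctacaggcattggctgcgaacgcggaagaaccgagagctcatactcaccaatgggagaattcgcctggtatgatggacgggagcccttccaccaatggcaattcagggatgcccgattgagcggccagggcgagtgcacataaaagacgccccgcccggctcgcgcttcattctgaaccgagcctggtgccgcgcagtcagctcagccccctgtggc
Id3: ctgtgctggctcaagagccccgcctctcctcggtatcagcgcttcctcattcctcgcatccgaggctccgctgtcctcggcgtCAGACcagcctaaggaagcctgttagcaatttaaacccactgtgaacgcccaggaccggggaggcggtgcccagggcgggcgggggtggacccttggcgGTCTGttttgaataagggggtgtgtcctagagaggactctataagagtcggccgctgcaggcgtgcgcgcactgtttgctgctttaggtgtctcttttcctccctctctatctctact
Bmpr1a: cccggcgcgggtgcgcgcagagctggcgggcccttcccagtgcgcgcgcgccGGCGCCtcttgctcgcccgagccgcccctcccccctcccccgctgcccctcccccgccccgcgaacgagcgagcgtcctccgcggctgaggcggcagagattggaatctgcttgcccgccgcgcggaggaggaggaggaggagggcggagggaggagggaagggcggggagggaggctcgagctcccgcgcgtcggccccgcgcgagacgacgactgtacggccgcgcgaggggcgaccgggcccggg
Smad6: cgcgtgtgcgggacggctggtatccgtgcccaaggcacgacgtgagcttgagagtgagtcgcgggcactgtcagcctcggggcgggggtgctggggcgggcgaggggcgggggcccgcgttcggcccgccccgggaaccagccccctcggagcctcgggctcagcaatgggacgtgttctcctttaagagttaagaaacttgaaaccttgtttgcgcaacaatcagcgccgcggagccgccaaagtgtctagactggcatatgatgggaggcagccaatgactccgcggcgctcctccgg

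The Id2 window held GGCGCC once, starting at position -231 from the transcription start, and the Bmpr1a window held it once, at -198. The Id3 window held CAGAC at -167 and its reverse complement at -68, and no GGCGCC. The Smad6 window held neither of these strings, and other forms of a SMAD box were not searched for in any window. Among all 32851 mouse promoter windows of this length, 11.9% held GGCGCC, 49.6% held CAGAC on either strand and 43.8% held neither. Of the 9 member genes with a window in the table (Id1 had no entry), 5 held GGCGCC and 2 held CAGAC, where Smad5 counted once over its 3 starts. The member windows were GC-rich, between 59.3% and 79.3%, against a median of 52.7% over all windows, and 30.0% of windows at or above 59.3% GC held GGCGCC. A match describes these letters only. The element was in the window of Id2, lowest on STIM1KO TAC, and in that of Bmpr1a, highest there.

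**Figure D1:**
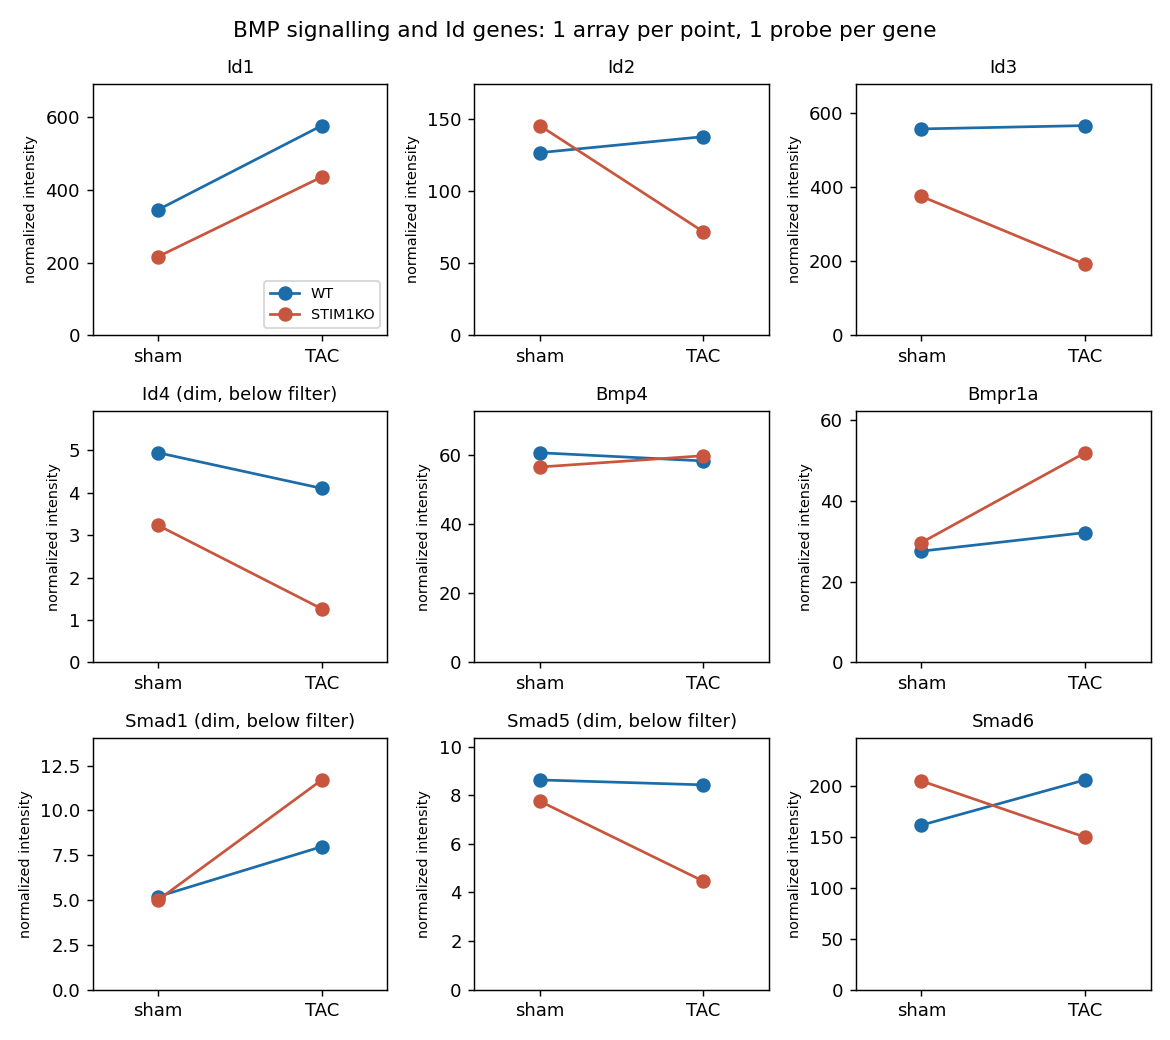
Normalized intensity (linear, arbitrary units, axes from 0) of the 9 measured members on each of the 4 arrays; a line joins sham and TAC of 1 genotype and each point is 1 array. Id1 is higher after TAC in both genotypes, Id2 and Id3 are lowest on STIM1KO TAC, and Id4, Smad1 and Smad5 are dim.

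Of the upstream members, the ligand Bmp4 stood out for its evenness. In WT its intensity was 60.6 after sham and 58.2 after TAC, and in STIM1KO 56.5 and 59.7. The whole range over the 4 arrays was 0.10 on the log2 scale, and only 1.45% of genes passing the filter had a smaller range. None of its 4 differences exceeded the single-probe error SD. Signs of differences this small carry no direction, and that between the TAC arrays, 0.04, was -0.004 with median centring.

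Bmpr1a, the type I receptor also called ALK3 that BMP4 uses, was highest on STIM1KO TAC. The WT arrays read 27.6 after sham and 32.2 after TAC, and the STIM1KO arrays 29.7 and 52.0. The first 3 arrays lay together, with differences of 0.22 between the WT arrays and 0.11 between the sham arrays. STIM1KO TAC was above STIM1KO sham by 0.81 (1.75-fold), rank 199 from the top, and above WT TAC by 0.69 (1.61-fold), rank 263. Both lay just outside the 95th percentile of all genes, 0.67 and 0.63, and short of 2-fold.

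Smad1 and Smad5, the receptor-activated SMADs of the pathway, were both dim, and their differences in the STIM1KO response had opposite signs. Smad1 read 5.19 after sham and 7.98 after TAC in WT, and 5.00 and 11.7 in STIM1KO, higher after TAC in both genotypes. Smad5 read 8.63 and 8.43 in WT, and 7.76 and 4.46 in STIM1KO, with the low value after TAC. In the STIM1KO response Smad1 differed by 1.23, or 0.71 when an offset of 5.49, the 25th percentile of intensities, was added before log2, and Smad5 by -0.80, or -0.41 with the offset. Of genes below the filter, 9.77% reached 2-fold in that comparison, so these values are given as a description.

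Smad6, the inhibitory SMAD, had differences of opposite sign in the responses of the 2 genotypes. It read 161.5 after sham and 206.0 after TAC in WT, and 205.0 and 149.8 in STIM1KO. WT TAC and STIM1KO sham were the high pair, and WT sham and STIM1KO TAC the low pair. The response was 0.35 in WT and -0.45 in STIM1KO, and the genotype difference was 0.34 after sham and -0.46 after TAC. All 4 lay inside the 5th to 95th percentile of all genes. Subtracting the WT response from the STIM1KO response gave -0.80, rank 142 from the bottom, where the single-probe error SD was 0.39.

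Id1 and Id3 encode closely related inhibitors of basic helix-loop-helix factors that are often described as partly redundant, and their patterns over these arrays differed. Id1 was higher after TAC in both genotypes and lower in STIM1KO after both operations. Id3 was level between the WT arrays and was lowest on STIM1KO TAC. In RNA of whole ventricle, fewer cells of a type and less RNA per cell cannot be told apart.

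In WT the Id1 probe read 345.5 after sham and 576.9 after TAC, and in STIM1KO 216.5 and 435.6. Both TAC arrays were above both sham arrays, and within each operation STIM1KO was the lower. Its log2 difference between TAC and sham was 0.74 in WT (1.67-fold), rank 42 from the top among 7020 genes, and 1.01 in STIM1KO (2.01-fold), rank 85. Both lay above the 95th percentile of all genes, which was 0.40 in WT and 0.67 in STIM1KO. Between genotypes Id1 differed by -0.67 after sham, rank 128 from the bottom, and by -0.40 after TAC, where 31.6% of all genes differed by as much. The sham difference was beyond the single-probe error SD of that comparison, 0.28, and the TAC difference was close to the SD between the TAC arrays, 0.38.

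The Id3 probe read 556.3 after sham and 565.3 after TAC in WT, against 374.7 and 191.4 in STIM1KO. The WT arrays could not be told apart at this precision, with a difference of 0.02, and both STIM1KO arrays lay below them. Id3 was 1.48-fold lower in STIM1KO than in WT after sham, at -0.57, and 2.95-fold lower after TAC, at -1.56. After TAC only 4 of the 7020 genes had a more negative difference, since Id3 ranked 5 from the bottom. Between TAC and sham in STIM1KO it differed by -0.97, rank 46 from the bottom and just short of 2-fold.

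Id2, which in the heart is known for a role in the conduction system, had its low value on 1 array. It read 126.4 after sham and 137.5 after TAC in WT, and 145.2 and 71.7 in STIM1KO. The other 3 arrays lay close together, with differences of 0.12 between the WT arrays and 0.20 between the sham arrays, both within the single-probe error SD. On STIM1KO TAC it differed by -1.02 from STIM1KO sham (2.03-fold lower), rank 41 from the bottom, and by -0.94 from WT TAC (1.92-fold lower), rank 109 from the bottom. Subtracting the WT response from the STIM1KO response gave -1.14 for Id2, rank 20 from the bottom. Of the 6 members passing the filter it alone reached 2-fold in that quantity, where 0.712% of all genes were at least 2-fold lower.

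Id4 was near the floor of the arrays. In WT it read 4.94 after sham and 4.10 after TAC, and in STIM1KO 3.23 and 1.26, all under the first quartile of deposited intensities, which was between 5.38 and 5.64. Its deposited value of 1.15 on STIM1KO TAC was close to the lowest intensity of any probe there, 1.14. The size of an Id4 difference is therefore not fixed by these data: STIM1KO TAC against WT TAC was -1.70, and -0.51 with the offset. Among genes below the filter, 8.8% differed by 2-fold between the TAC arrays.

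Because arrays can differ in overall scale, the difference of 1 gene relative to another on the same arrays was also taken. From STIM1KO sham to STIM1KO TAC, the Id1 difference was above that of Id3 by 1.98 on the log2 scale and above that of Id2 by 2.03, while Id2 was -0.05 from Id3. From WT sham to WT TAC, it was above Id3 by 0.72 and above Id2 by 0.62. Between the sham arrays Id1 and Id3 were both lower, with Id1 at -0.10 relative to Id3, and Id2 was not. These differences of differences do not depend on a constant factor per array.

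**Figure D2:**
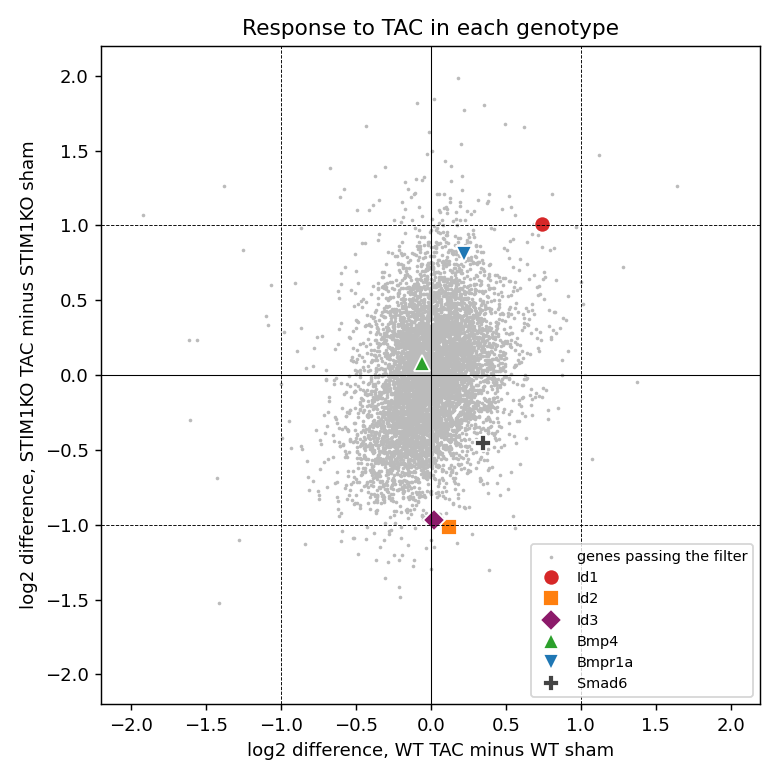
Log2 difference of TAC against sham in STIM1KO (y axis) plotted against the same in WT (x axis), which share no array; grey points are the 7020 genes passing the filter (6 lie outside the axes), coloured markers the 6 members, dashed lines 2-fold. Id1 lies at the upper right, Id2 and Id3 near the dashed line at the bottom with values near 0 in WT, and Bmp4 near the centre.

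**Figure D3:**
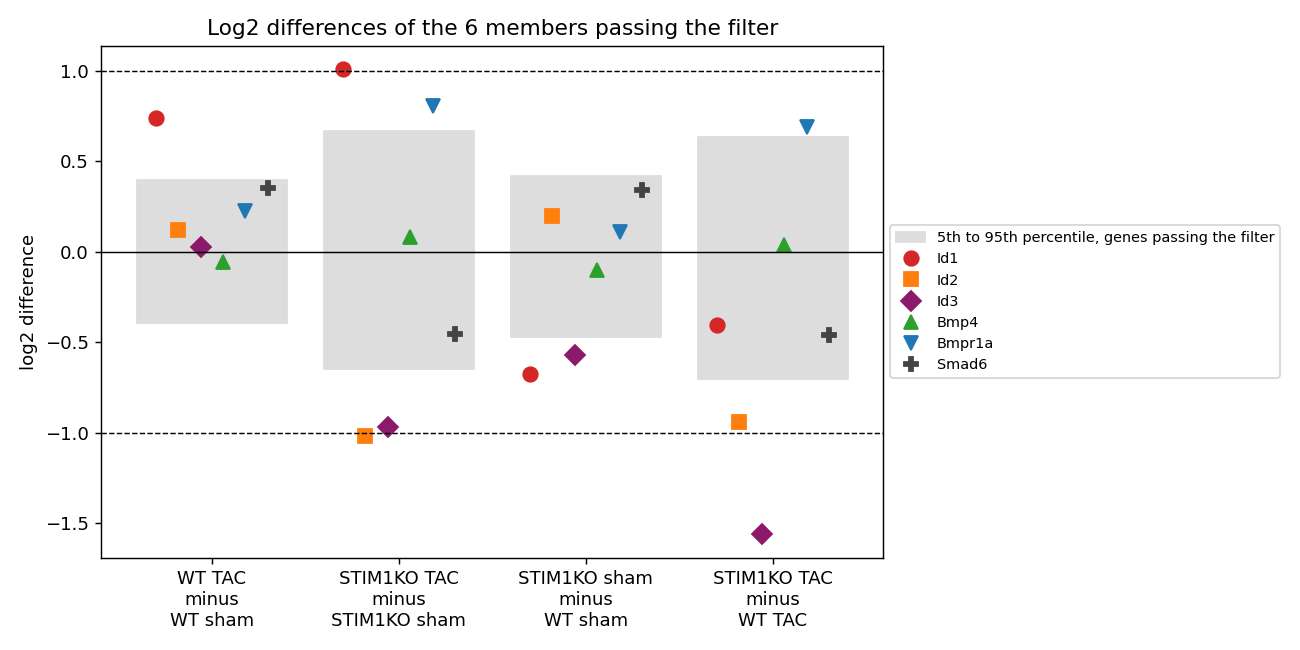
Log2 differences (y axis) of the 6 members passing the filter in the 4 comparisons (x axis), 1 marker per gene; grey boxes span the 5th to 95th percentile of the 7020 genes passing the filter and dashed lines mark 2-fold. Id3 at -1.56 between the TAC arrays is the value farthest from 0, and Bmp4 lies near 0 throughout.

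In the WT response 0 of the 6 members passing the filter reached 2-fold, against 0.313% of all genes passing the filter. In the STIM1KO response 2 of 6 did, Id1 higher and Id2 lower, against 1.85% of all genes (1.25% higher and 0.598% lower). Both were just past the line: neither reached 2-fold with the values as deposited or with an offset before log2, and Id2 did not when empty cells were allowed in the normalization. With median centring Id2 and Id3 reached it and Id1 did not. Between the sham arrays 0 of 6 reached it, against 0.556%, and between the TAC arrays 1 of 6 did, Id3, against 1.97% in either direction and 1.08% lower. With a line at 1.5-fold, members reached it in the numbers 1 (Id1) in the WT response, 4 (Id1, Id2, Id3 and Bmpr1a) in the STIM1KO response, 1 (Id1) between the sham arrays and 3 (Id2, Id3 and Bmpr1a) between the TAC arrays, against 2.85%, 14.4%, 3.96% and 14.5% of all genes. All counts rest on few genes.

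The median of the 6 members was 0.17 in the WT response, -0.19 in the STIM1KO response, 0.002 between the sham arrays and -0.43 between the TAC arrays. The medians of all genes passing the filter were -0.015, -0.004, 0.001 and 0.01. Above 0 were 5 of 6 members in the WT response, 3 in the STIM1KO response, 3 between the sham arrays and 2 between the TAC arrays. A median hides the spread in the STIM1KO response, where members ran from -1.02 for Id2 to 1.01 for Id1. Each response shares 1 array with each genotype comparison, so the comparisons are not independent.

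The balance of all genes between higher and lower depended on the scaling. In the STIM1KO response 88 genes were 2-fold higher and 42 lower, or 70 and 56 with median centring and 117 and 29 with empty cells allowed. Between the TAC arrays 62 were higher and 76 lower, or 45 and 98 with median centring and 46 and 97 with the values as deposited. In the WT response the split was 8 and 14, or 4 and 12 with the offset. Id3 kept a difference between -1.64 and -1.54 between the TAC arrays under every scaling run.

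**Figure D4:**
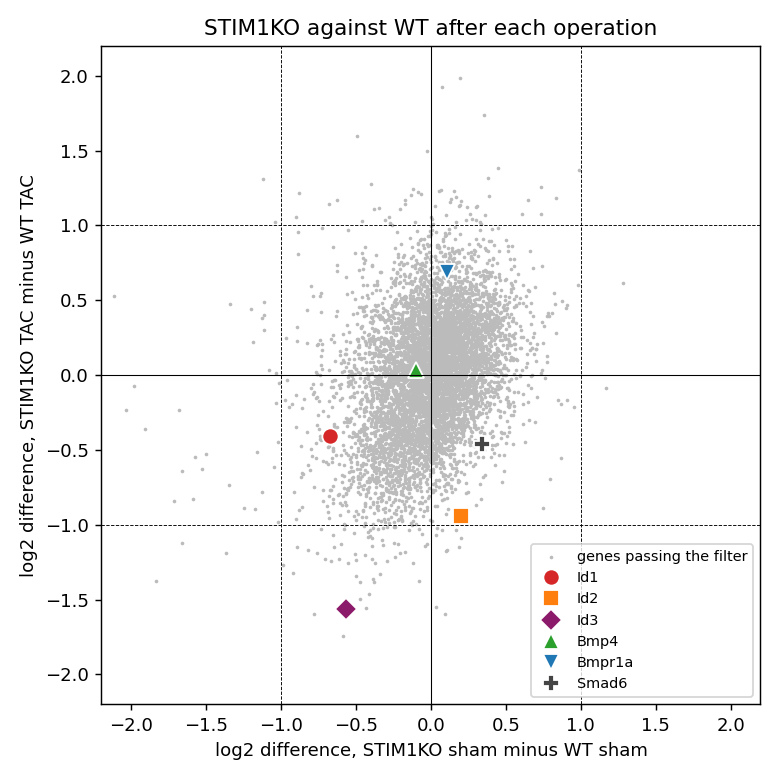
Log2 difference of STIM1KO against WT after TAC (y axis) plotted against the same after sham (x axis), which share no array; grey points are the 7020 genes passing the filter (4 lie outside the axes), coloured markers the 6 members, dashed lines 2-fold. Id3 lies at the lower left, Id2 and Smad6 at the lower right, and Id1 at the left.

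Other genes of the pathway were taken from 6 lists of 78 symbols in all, of which 67 had a probe and 29 passed the filter. Another 31 were below the filter and 7 had an empty value on some array. Of the 29, 0 reached 2-fold in the WT or STIM1KO response or between the sham arrays, against 0.313%, 1.85% and 0.556% of all genes. Between the TAC arrays 1 of the 29 did, Fstl1 (3.45%), against 1.97%. There 19 lay above 0 and 10 lay below, and the median was 0.06. In the WT response 13 were above 0 and 16 below (median -0.02), in the STIM1KO response 15 and 14 (0.04), and between the sham arrays 15 and 14 (0.005). The wider pathway thus sat near the medians of all genes in each comparison.

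Ligands were the list with the largest positive median between the TAC arrays, 0.69 over the 3 genes passing the filter. Bmp10, a cardiac BMP ligand, read 85.4 after sham and 95.3 after TAC in WT, and 111.6 and 177.0 in STIM1KO, and differed by 0.89 between the TAC arrays. Bmp5 differed by 0.69 there and by -0.61 in the WT response. Bmp6 differed by 0.67 between the TAC arrays and by 0.43 in the STIM1KO response. All 3 were highest on STIM1KO TAC, and none reached 2-fold.

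Among receptors and coreceptors passing the filter, 3 of 5 were above 0 between the TAC arrays, with a median of 0.11. Eng, the endothelial coreceptor endoglin, read 88.2 after sham and 90.4 after TAC in WT, and 93.5 and 54.1 in STIM1KO. It was level on 3 arrays and lower on STIM1KO TAC, at -0.79 against STIM1KO sham and -0.74 against WT TAC. Hjv, the coreceptor hemojuvelin, differed by 0.35 in the WT response, and Rgmb, a related coreceptor, by -0.34.

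Among SMADs and their regulators, Smad4, the SMAD shared with the TGF-beta pathway, differed by -0.39 in the STIM1KO response and -0.48 between the TAC arrays, while Ski, a corepressor, differed by 0.32 in the STIM1KO response. Tob1, a repressor of SMAD activity, was highest on STIM1KO sham, at 0.41 against WT sham and with -0.37 in the STIM1KO response. The list had 3 of 4 genes passing the filter above 0 between the TAC arrays and a median of 0.02.

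Of the 9 secreted and membrane antagonists passing the filter, 6 were above 0 between the TAC arrays, and their median was 0.03. Fstl1, a secreted follistatin-like glycoprotein, read 335.9 after sham and 337.8 after TAC in WT, and 252.8 and 164.6 in STIM1KO. Between the TAC arrays it differed by -1.04. Crim1, a membrane protein that binds BMPs, was at -0.996 there, just short of 2-fold (and -1.01 with the lowest of the alternative settings), and at -0.58 between the sham arrays. Chrd, the BMP-binding antagonist chordin, differed by 0.61 between the TAC arrays. Fstl1 and Crim1 shared with Id3 the order of the STIM1KO arrays: lower than WT after sham and lower still after TAC. That order was not particular to the pathway. Among cell type markers, picked here after their values were seen, Dcn and Rgs5 had it, while Flt1 and Des did not.

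Of the other target genes, the 5 passing the filter stayed within 0.5 of 0, with Runx2 at -0.46 and Hes1 at 0.41 in the STIM1KO response and Hey1 at 0.41 in the WT response; their median between the TAC arrays was 0.15. Dim target genes ranged more widely. Gata4, a cardiac transcription factor singled out after its values were seen, was at -1.19 in the STIM1KO response and -1.53 between the TAC arrays. It read 25.5 on WT TAC and 8.82 on STIM1KO TAC. Of genes below the filter, 9.77% and 8.8% reached 2-fold in those comparisons. Msx2 and Dlx5, also dim and picked in the same way, were at 0.71 and 0.67 between the TAC arrays. Of the basic helix-loop-helix partners of Id proteins, 3 passed the filter. Tcf3, which encodes the E proteins E12 and E47, differed by -0.69 in the WT response, or -0.33 with the mean over its probes, Twist1 by 0.46 between the TAC arrays and Tcf21, a factor of cardiac fibroblasts, by -0.18 between the sham arrays, the largest of its differences.

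**Figure D5:**
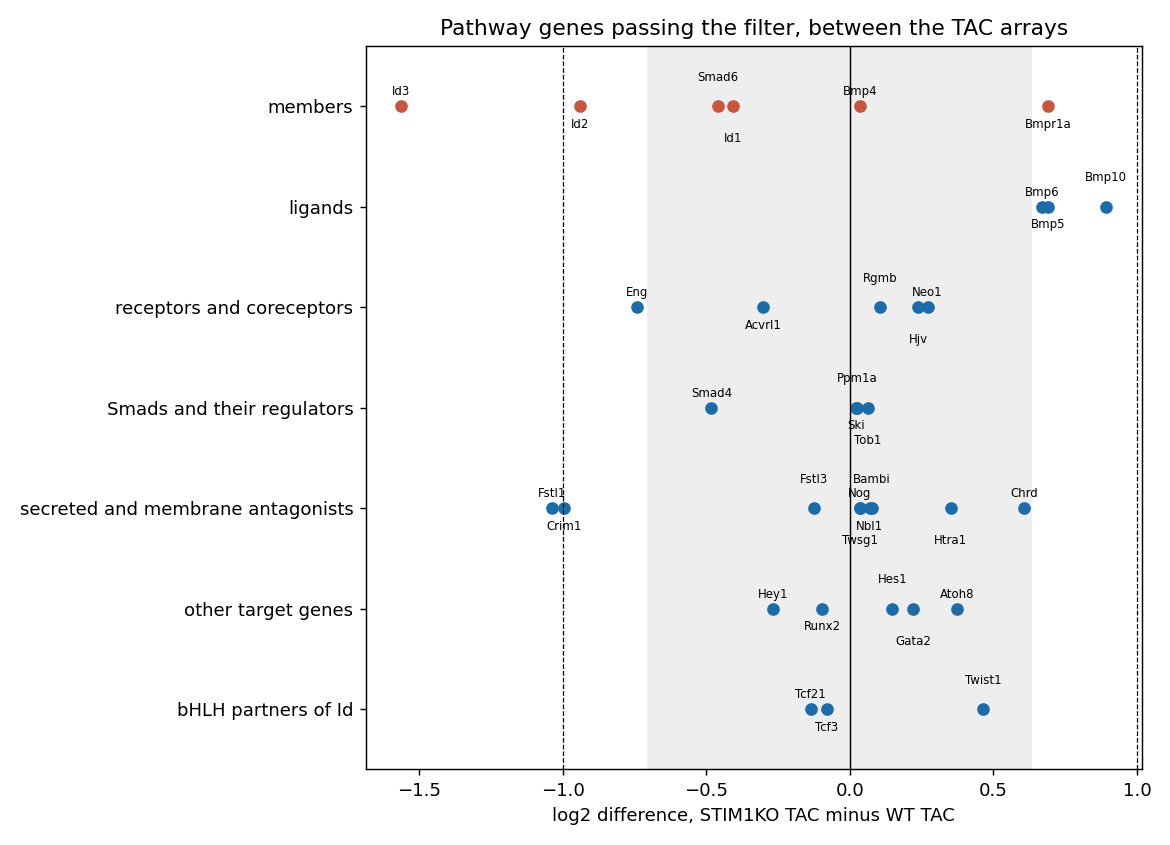
Log2 difference of STIM1KO TAC minus WT TAC (x axis) of the members (red) and of the pathway genes passing the filter (blue), in rows by role; the grey band spans the 5th to 95th percentile of all genes passing the filter and dashed lines mark 2-fold. Id3, Id2, Fstl1, Crim1 and Eng lie below the band, and Bmp5, Bmp6, Bmp10 and Bmpr1a above it.

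Id1, Id3 and Eng are strongly expressed in endothelial cells. Of 18 endothelial markers, all had a value on every array and 14 passed the filter, with a summed intensity of 5507 after sham and 5104 after TAC in WT, and 3967 and 4054 in STIM1KO. Between the sham arrays all 14 were below 0, with a median of -0.37, and between the TAC arrays 11 of 14 were, with a median of -0.29. In the STIM1KO response 8 of 14 were below 0, with a median of -0.27. Between the sham arrays Id1 (-0.67) and Id3 (-0.57) were lower, as were these markers, while Eng (0.08) and Id2 (0.20) were not. In the STIM1KO response the summed intensity of the markers was nearly level, but single markers, picked here after their values were seen, spread in both directions: Pecam1 was at -0.58, Kdr at -0.56 and Ptprb at -0.89, and Gpihbp1 at 0.65 and Ramp2 at 0.76, beside Id3 at -0.97 and Id1 at 1.01. The lowest intensity of any probe was above 0 on every array, so a marker at 0 could not occur. The part of the endothelial share in the Id values was not tested.

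Markers of the other cell types also differed between arrays. Summed fibroblast markers, with 10 of 12 passing, read 13648 after sham and 10956 after TAC in WT, and 10659 and 7979 in STIM1KO. That sum is mostly 2 bright probes, Gsn and Dcn, which were at -0.53 and -0.75 in the STIM1KO response. The median of the 10 was -0.01 there, with 4 above 0 and Col1a2, like Gsn and Dcn named after its value was seen, at 1.30, and -0.12 between the TAC arrays, also with 4 above 0. Summed macrophage markers, with 11 of 14 passing, read 2618 and 2706 in WT, and 2285 and 2912 in STIM1KO, with a median of 0.51 and 8 of 11 above 0 in the STIM1KO response. Summed smooth muscle and pericyte markers, with 7 of 10 passing, read 3597 and 3053 in WT, and 3661 and 3450 in STIM1KO. Their median was -0.13 in the STIM1KO response, with 3 above 0 and 4 below. Between the TAC arrays it was 0.16, with 4 above 0 and 3 below. In each of these comparisons 1 of the 7 was 2-fold lower, against 0.598% and 1.08% of all genes. Summed cardiomyocyte markers lay between 237526 and 281758. The cardiomyocyte sum is mostly probes at the top of the scale, where quantile normalization gives every array the same set of values. Myl2, for example, read 58086 on both WT arrays and on STIM1KO sham. That sum therefore says little of the cardiomyocyte share. Of 5 erythrocyte markers, 1 had a probe, which lay between 68.3 and 73.1 on the other arrays and at 118.2 on STIM1KO TAC. The part of these cell types in the values of the members was not tested.

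Genes with the most similar profile were found by the Euclidean distance between log2 profiles over the 4 arrays, each centred on its own mean. The genes closest to Id3 were Pdzd9 at 0.16, Bloc1s4 at 0.16 and Rgs3, a regulator of G protein signalling, at 0.17, and 74 genes lay within 0.5. Closest to Id1 were Nr2f6, an orphan nuclear receptor, at 0.24, Ifi30 at 0.27 and Pla1a at 0.31, with 21 genes within 0.5. Closest to Id2 were P4ha2, a subunit of collagen prolyl hydroxylase, at 0.13, Dennd10 at 0.14 and Tha1 at 0.14, with 820 genes within 0.5. Closest to Bmpr1a were Rasgrp2 at 0.07, Atg12 at 0.08 and Foxb2 at 0.08, closest to Smad6 were Sub1 at 0.04, Brms1l at 0.04 and Pnliprp2 at 0.07, and closest to Bmp4 were Mmgt1, Plcd1 and Atp5d. Id1 and Id3 were 1.58 apart and Id2 and Id3 0.70. Among the members passing the filter Id1 and Id3 had the widest ranges over the arrays, 1.41 and 1.56 against a median of 0.45 over all genes passing, and they had few near neighbours, whereas Bmp4 had 5147 within 0.5. With 4 arrays there is little to separate profiles, and nearness here says nothing of shared control.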

How the data were processed

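The deposited intensity values were linear, 1 per probe and array, with a median near 20 on every array. Amplified RNA carried Cy5 as the single colour, per the labels' protocols. The scanner was not given in the sources used here, nor was any background correction or the reason why some cells are empty.

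Of 23473 probes, the 19607 measured on all 4 arrays were taken to log2 and quantile normalized (limma 3.58.1, R 4.3.3), since array medians over them spread by 0.101. Symbols came from the probe annotation, updated by a GRCm38.p6 gene table used for names only. The brightest probe stood for a gene. The dim-signal filter was the median of the gene means, log2 4.87 or an intensity of 29.3, and 7020 of 14039 genes passed. A gene was counted from 2-fold on. No test was run, as 1 array per group limits the precision. The steps were tested on simulated arrays with noise far below the single-probe error SD and planted changes beyond 2-fold in bright genes. That test says nothing of calls near 2-fold. Promoters are RefSeq's.

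Members and lists were chosen with earlier results of these data known. The genes named by rule are the members, Stim1, Nppa, Nppb and Myh7, pathway genes passing the filter, and the 3 nearest profiles of a member. Those pathway genes are any at 2-fold with up to 3 of largest difference per list. Gata4, Msx2, Dlx5 and the single cell type markers named above fall outside this rule. Alternatives were median centring, unnormalized values, other filters (none, 75th percentile), adding 5.49 (the 25th percentile of intensities) before log2, averaging probes, and lines at 1.5-fold and 3-fold. Normalizing over all probes, empty cells allowed, was chosen after seeing the data.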

Additional observations from a re-analysis of the deposited data

Results flagged for a closer look

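With 1 array per group, a member passing the filter on dim signals is listed here when its difference had opposite signs in the 2 genotypes or after the 2 operations under quantile normalization, median centring, values as deposited and the offset before log2. The difference between the groups was not tested. For Id2 the difference of TAC from sham was 0.12 in WT and -1.02 in STIM1KO, and it differed by 0.20 between genotypes after sham and -0.94 after TAC. Between TAC and sham, Id3 differed by 0.023 in WT and by -0.97 in STIM1KO. Smad6 differed by 0.35 and -0.45 in the 2 responses, and by 0.34 and -0.46 between genotypes after sham and after TAC. Bmp4 differed by -0.057 and 0.081 in the 2 responses, both within the error of a single probe. Of the dim members, Smad1 also had opposite signs between genotypes, -0.05 after sham and 0.55 after TAC, or 0.35 after TAC with the offset. Its sham value comes from dim readings of 5.19 and 5.00, is near 0 and carries no direction. The WT values of Id2 and Id3 and the sham value of Id2 were also within the single-probe error, so for those genes the opposite sign rests on values near 0.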

How the results depend on the processing

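No paired analysis was possible because each group has 1 array. Of 30 differences of the 6 members passing the filter (4 comparisons and the difference of responses), 29 kept their sign over 6 ways of computing a gene's value; the exception was Bmp4 between the TAC arrays. Of 15 for the 3 dim members, 14 did, the exception being Smad5 in the WT response. Each measured member has 1 probe, so averaging probes only repeats the main value. The other ways rescale the same arrays, and the differences of a gene share arrays. A kept sign is therefore no replication. Member counts at 2-fold in the STIM1KO response went from 2 to 0 with values as deposited, with the offset and at 3-fold, to 1 with quantile normalization over all probes, and to 4 with no filter or at 1.5-fold. Between the TAC arrays 1 became 2 with no filter, 3 at 1.5-fold and 0 at 3-fold. In the WT response and between the sham arrays 0 became 1 at 1.5-fold, Id1 each time. Member medians with no filter were -0.45 in the STIM1KO response, -0.10 between the sham arrays and -0.76 in the difference of responses (main value -0.33). With the 75th percentile filter, which leaves 4 members, they were -0.71, -0.19 and -0.90, and -0.70 between the TAC arrays. These shifts come with a change in which members enter. All genes at 2-fold numbered 22, 130, 39 and 138 in the WT response, the STIM1KO response, the sham arrays and the TAC arrays. They were 292, 816, 375 and 756 with no filter, and 7, 52, 20 and 46 with the 75th percentile filter. They were 200, 1012, 278 and 1020 at 1.5-fold, and 5, 14, 12 and 9 at 3-fold. Signal limits Id4, Smad1 and Smad5, which lay below the filter on dim signals.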
